A study of Mus musculus with 20 samples.

Results

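The cells described here are the C1q-positive cells of leukaemic mouse spleens and lymph nodes, profiled by 3′ single-cell RNA-sequencing (scRNA-seq), which counts RNA molecules by their unique molecular identifiers (UMIs). They were put forward as macrophages with the markers C1qa, C1qb, Vcam1 and Hmox1. A droplet barcode was a member when it held 1500 or more UMIs from 200 or more genes with a mitochondrial share of no more than 10%, at least 5 UMIs of C1qa, C1qb and C1qc together, no UMI of Cd3d, Cd3e or Cd3g and at most 1 UMI of Cd79a and Cd79b. This rule found 303 members among 97181 cells in 20 libraries, or 0.312% of cells. The C1q, Cd3 and Cd79 counts therefore chose the members and are given only as a description. Members were set beside 2749 monocytes, defined as cells with at least 5 Lyz2 UMIs, at least 1 Csf1r UMI and fewer than 3 C1q UMIs. T cells, used as a further background class, held at least 2 Cd3 UMIs and no Cd79 or C1q UMI.

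The libraries came from 13 mice, labelled C57BL/6N (the methods put the Eµ-TCL1 parents on C57BL/6 J), and held unselected live cells. Eµ-PRMT5 mice carry human PRMT5, an arginine methyltransferase, and Eµ-TCL1 mice carry human TCL1, a leukaemia oncogene. In both, the cDNA is driven in B cells by an immunoglobulin heavy chain promoter and Eµ enhancer, so that the C1q-positive cells are not the cells the transgene was built for, and Eµ-PRMT5/TCL1 mice carry both. Spleens came from 5 Eµ-PRMT5 mice, 4 mice with Eµ-TCL1 and 4 double transgenic mice, and lymph nodes from 3 Eµ-TCL1 and 4 double transgenic mice, all at the stage of disease that required euthanasia, with no library of mice without a transgene. The PRMT5 transgene was bred in more than 1 founder line, the line of each mouse is not used here, the labels give no age, and 7 mice gave both tissues. Total UMIs per library lay between 9348094 and 72440894, and cells between 784 and 8631.

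C1q is the recognition part of the classical complement pathway, built from the products of C1qa, C1qb and C1qc, and it binds antibody complexes and dying cells. Tissue macrophages make most of the body's C1q. In the spleen, red pulp macrophages clear aged red blood cells and recycle their iron, with Spic as their transcription factor, Hmox1 as the enzyme that opens the haem ring, Slc40a1 as the iron exporter and Vcam1 as a surface adhesion molecule. Inflammatory monocytes carry Ly6c2 and Ccr2 and can acquire macrophage genes once they enter a tissue.

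The genes of the 3 C1q chains lie side by side on the minus strand of chromosome 4 (GRCm38, GENCODE vM21). C1qb spans chr4:136880129-136886187, C1qc chr4:136889804-136893065 and C1qa chr4:136895917-136898803. Because they define the cells, the promoters of C1qb and C1qc were read from RefSeq (GRCm38.p6) from 250 bases before to 50 after the start, and searched on both strands for GGAAGT and its complement ACTTCC, the core letters bound by PU.1, the ETS factor of myeloid cells, and by other ETS factors. The promoter set used held no window for C1qa, which was therefore not read. The letters were chosen after these promoters had been read. Each window held ACTTCC 1 time on the gene's strand. Below, the stretch around them is shown 5′ to 3′ on the gene's strand with the 6 letters in capitals, first for C1qb (chr4:136886238-136886263, capitals beginning 53 bases before the RefSeq start) and then for C1qc (chr4:136893094-136893119, capitals beginning 195 bases before it).
C1qb: aggacctgaaACTTCCtgagggcagc
C1qc: gacggcagacACTTCCtcattttggc
The same letters stood in 23.8% of the 32851 promoter windows of this length, so that a match is a description and not a binding site.

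Checked against its markers, the population fitted its label in part. All 303 members held C1qb, 271 held C1qc and 210 held C1qa. Fcer1g, the signalling chain of Fc receptors, was seen in all 303 members, Cd68, a lysosomal macrophage protein, in 260, and Csf1r, the receptor of macrophage growth factor, in all but 68. Fcer1g does not part members from monocytes, being seen in all 240 monocytes of Eµ-TCL1 spleen 3. Of other genes listed for macrophage identity, Adgre1 was seen in 59 members, Ms4a7 in 50 and Mertk in 18. The monocyte gene Ly6c2 was seen in 185 (61.1%). Hmox1 was seen in 181 members (59.7%). Vcam1 was seen in 32 (10.6%), Spic in 26 and Slc40a1 in 17. Cd163, a haemoglobin scavenger receptor, was seen in 3, Marco in 4 and Siglec1, a sialic acid receptor of marginal zone and sinus macrophages, in 5. In Eµ-PRMT5 spleen 4, a UMI of Hmox1 was seen in 61.5% of members, 55.2% of monocytes and 6.90% of T cells, at median depths of 7150.5, 10343.5 and 3157 UMIs. At this depth no UMI of Vcam1, Spic or Slc40a1 was seen in most members, and they are called C1q-positive cells below.

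The C1q-positive cells were very unevenly spread over the libraries. Eµ-PRMT5 spleen 4 held 200 of them, or 66.0% of all members and 4.34% of its 4603 cells (95% Wilson interval 3.79 to 4.97%). The other 4 Eµ-PRMT5 spleens held none, which allows shares of up to 0.0646%, 0.296%, 0.0579% and 0.0502% in spleens 1, 2, 3 and 5. The 4 Eµ-TCL1 spleens held 0.284%, 0.0290%, 0.681% and 0.0874% (18, 2, 34 and 5 cells). The 4 Eµ-PRMT5/TCL1 spleens held 0.0335%, 0.296%, 0.0640% and 0.0371% (2, 11, 3 and 2 cells). Thus every spleen with TCL1 held at least 2 such cells, and a single Eµ-PRMT5 spleen held more members than all other libraries together. Without the Cd3 and Cd79 limits the lead was smaller: Eµ-PRMT5 spleen 4 held 218 of all 433 barcodes with at least 5 C1q UMIs. These limits left out 18 of its 218 but 130 of the 433 in all, among them 41 of 75 in Eµ-TCL1 spleen 3. No setting lifted both limits. Eµ-PRMT5 spleen 4 was also the deepest of the 20 libraries and Eµ-PRMT5 spleen 2 the shallowest. With C1q at 0.1% or more of a barcode's UMIs as a further condition, Eµ-PRMT5 spleen 4 held 175 members and the other 4 held 0. Intervals and limits cover counting error only.

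**Figure D1:**
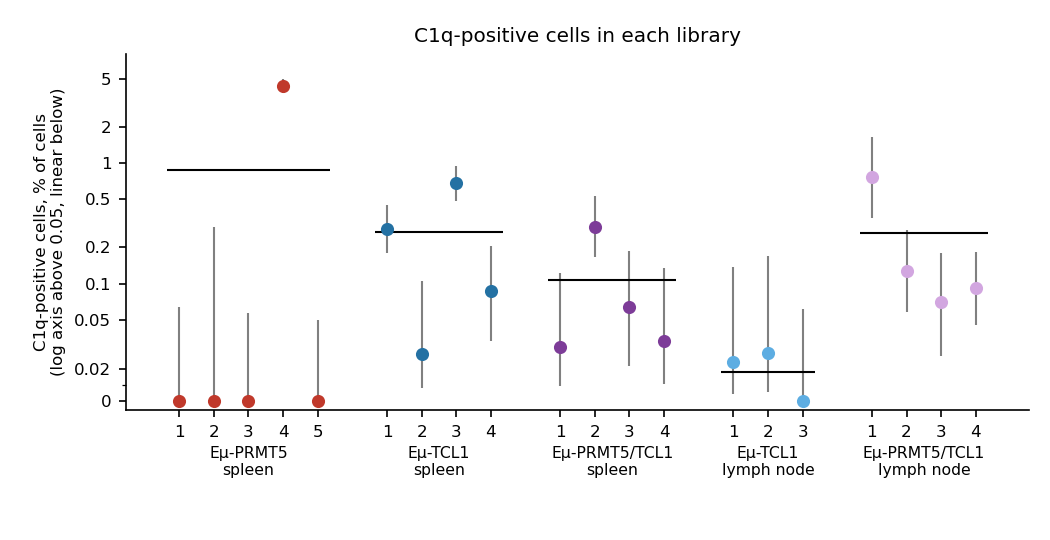
Share of C1q-positive cells (percent of cells, symmetric log axis) in each of the 20 libraries, grouped by genotype and tissue. Points are libraries, grey lines 95% Wilson intervals (for a count of 0, up to the limit of 3 cells) and black bars group means. Eµ-PRMT5 spleen 4 stands at 4.34%, and the other 4 Eµ-PRMT5 spleens stand at 0.

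No difference in this share between spleen groups exceeded the spread of their libraries. In spleens, the mean was 0.869% ± 1.94 (SD, n = 5) with PRMT5 alone, 0.270% ± 0.295 (n = 4) with TCL1 alone and 0.108% ± 0.127 (n = 4) with both. Exact two-sided permutation tests over libraries gave p = 0.905 for Eµ-PRMT5 against Eµ-TCL1 (n = 5 and 4), with an adjusted p of 0.905 over 9 tests. The same exact permutation test gave p = 0.371 (adjusted p = 0.836) for Eµ-PRMT5/TCL1 against Eµ-TCL1 and p = 0.905 (adjusted p = 0.905) for Eµ-PRMT5/TCL1 against Eµ-PRMT5. Eµ-PRMT5 spleen 4 alone set the direction. Without it the Eµ-PRMT5 mean was 0, the difference from Eµ-TCL1 spleens was -0.270 percentage points and that of Eµ-PRMT5/TCL1 from Eµ-PRMT5 spleens was 0.108 points, each with an exact permutation p of 0.0286 (adjusted p = 0.257), which is the smallest p that 4 against 4 libraries can give.

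In lymph nodes, the 4 Eµ-PRMT5/TCL1 nodes held 0.765%, 0.128%, 0.0707% and 0.0927% C1q-positive cells (6, 6, 4 and 8 cells). The 3 Eµ-TCL1 nodes held 0.0243%, 0.0299% and 0% (1, 1 and 0 cells), the last with a limit of 0.0624%. The 2 groups did not overlap, with means of 0.264% ± 0.335 and 0.0181% ± 0.0159 (SD). The exact permutation p was 0.0571, the smallest that 4 against 3 nodes allow, and the adjusted p was 0.514. Without node 1 of Eµ-PRMT5/TCL1 the difference fell from 0.246 to 0.0791 percentage points. Node 1 of Eµ-PRMT5/TCL1 had the fewest cells of any library (784). The Wilson intervals of the other 3 double transgenic nodes overlapped those of the Eµ-TCL1 nodes.

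Node and spleen of the same mouse showed no common direction. Among the 4 Eµ-PRMT5/TCL1 mice the node exceeded the spleen by 0.728, 0.0946 and 0.00668 percentage points in 3, and the difference was -0.204 points in the other. Among the 3 Eµ-TCL1 mice node minus spleen was -0.259 and -0.0874 points in 2 mice and 0.000939 points in the other. Over the 7 mice the mean difference was 0.0400 points, with the node higher in 4 of 7 (exact sign-flip permutation p = 0.828, adjusted p = 0.905). The tissue difference was 0.272 points larger in Eµ-PRMT5/TCL1 than in Eµ-TCL1 mice (exact permutation p = 0.286, n = 4 and 3).

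Set against monocytes of the same library, C1q-positive cells made up 31.9% of both classes together in Eµ-PRMT5 spleen 4, where 426 monocytes were found. They made up 2.39 to 12.4% in Eµ-TCL1 spleens and 1.15 to 6.45% in Eµ-PRMT5/TCL1 spleens. The group means were 6.39% ± 14.3 (SD, n = 5), 6.19% ± 4.33 (n = 4) and 2.73% ± 2.49 (n = 4), and no difference among the 3 pairs exceeded the spread of libraries (exact permutation p = 0.905, 0.257 and 0.905 for Eµ-PRMT5 against Eµ-TCL1, double transgenic against Eµ-TCL1 and double transgenic against Eµ-PRMT5, adjusted p = 0.905, 0.771 and 0.905). In nodes with at least 20 cells of both classes, the share was 28.6%, 8.0% and 28.6% in Eµ-PRMT5/TCL1 nodes 2, 3 and 4 and 0% in Eµ-TCL1 node 3, with a single Eµ-TCL1 library and so no test. In 4 mice with enough cells in both tissues, the node exceeded the spleen by a mean of 13.2 points, in 3 of 4 mice (exact permutation p = 0.250, adjusted p = 0.771, smallest possible 0.125).

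C1q RNA was also seen outside the members. In Eµ-PRMT5 spleen 4, 90 of 426 monocytes (21.1%) held C1qb, and of the barcodes that met the other limits 137 held 1 or 2 C1q UMIs and 41 held 3 or 4. Free RNA can bring C1q into any droplet. For this check T cells were counted without the limit on C1q. Of 32341 such T cells, which should lack C1q, 0 to 3.33% per library held any C1q UMI, and 24 in all held at least 5. In Eµ-PRMT5 spleen 4 it was 3.33% of 120 T cells at a median depth of 3200 UMIs, against a median of 7150.5 UMIs in members. A further 130 of the 433 barcodes with at least 5 C1q UMIs were left out by the rule because they also held Cd3 or Cd79 RNA. In Eµ-TCL1 spleen 3 this applied to 41 of 75 such barcodes, and in Eµ-PRMT5 spleen 4 to 18 of 218. It applied to 18 of 36 in Eµ-TCL1 spleen 1, 6 of 17 in Eµ-PRMT5/TCL1 spleen 2 and 12 of 15 in Eµ-PRMT5/TCL1 spleen 3. No barcode was a member in more than 1 library, while 32 member barcodes (10.6%) were also a cell in another library, against 11.8% of all 97181 cells counted the same way.

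Just inside the limit, 34 members held 5 or 6 C1q UMIs, with 139.6 CPM Hmox1, 242.2 CPM Apoe and 2653 CPM Ly6c2 in their summed UMIs, where CPM is the gene's UMIs scaled to a common total per pool of cells. Just outside it, 78 cells held 3 or 4, with 171.4 CPM Hmox1, 149.0 CPM Apoe and 2780 CPM Ly6c2. The 269 members with 7 or more held 612 CPM Hmox1, 1076 CPM Apoe and 1052 CPM Ly6c2. In these 3 genes cells on either side of the limit stood closer to each other than to the members far inside it. Lyz2 did not follow this, at 10680 CPM just outside, 7144 CPM just inside and 6642 CPM far inside.

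Profiles were read in the 4 libraries with at least 10 members, all of them spleens: Eµ-PRMT5 spleen 4 (200 cells), Eµ-TCL1 spleen 1 (18), Eµ-TCL1 spleen 3 (34) and Eµ-PRMT5/TCL1 spleen 2 (11). No genotype comparison had 2 such libraries on both sides, so that no gene was tested between groups, and levels are given per library as CPM of the members' summed UMIs. One UMI was worth 0.662 CPM in Eµ-PRMT5 spleen 4 and between 6.05 and 8.25 CPM in the other 3. Bulk sums cannot tell fewer expressing cells from less RNA per cell, and counts of cells with a UMI are given beside them.

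Among the given markers, Hmox1 stood at 410 CPM (exact 95% Poisson interval 378 to 444) in members of Eµ-PRMT5 spleen 4 and 112 CPM (103 to 122) in its monocytes. In Eµ-TCL1 spleens 1 and 3 and Eµ-PRMT5/TCL1 spleen 2 it stood at 508, 629 and 1221 CPM in members, against 45.4, 135 and 205 CPM in monocytes. Members thus held more Hmox1 than monocytes in 4 of 4 libraries, but 108 of the 148 Hmox1 UMIs of the last library came from 1 cell, and in Eµ-TCL1 spleen 1 the 12 of 18 members with at least 5 Lyz2 UMIs stood at 28.5 CPM, below its monocytes. Vcam1 stood at 16.6 CPM (10.7 to 24.5) in Eµ-PRMT5 spleen 4, where 17 of 200 members (8.50%) held a UMI, against 7.04% of its monocytes and 1.72% of its T cells, whose median depth was 3157 UMIs. Thinned to 1500 UMIs per cell, the Vcam1 share was 3.50% of members, 1.17% of monocytes and 0% of T cells. In Eµ-TCL1 spleens 1 and 3 Vcam1 stood at 132 and 96.8 CPM, of which 1 cell each gave 18 of 21 and 14 of 16 UMIs. Over all libraries but Eµ-PRMT5 spleen 4, 15 of 103 members (14.6%) held Vcam1, among them 5 of 24 in the Eµ-PRMT5/TCL1 nodes.

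**Figure D2:**
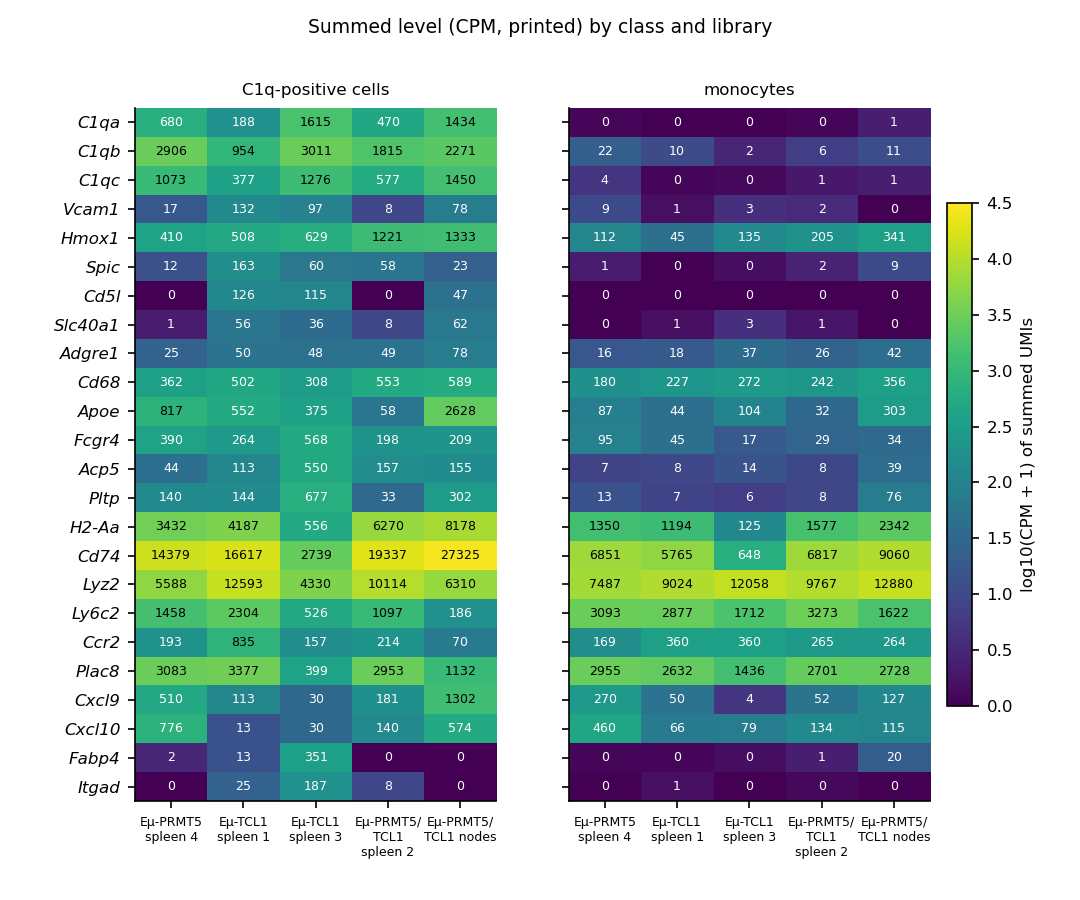
Level of 24 genes in C1q-positive cells (left) and monocytes (right), as CPM of summed UMIs (printed) and log10(CPM + 1) (colour), in the 4 profiled spleens and the Eµ-PRMT5/TCL1 lymph nodes summed. Hmox1 was higher in C1q-positive cells in each column, whereas Vcam1 was at 16.6 CPM in Eµ-PRMT5 spleen 4, and Fabp4 reached 351 CPM in Eµ-TCL1 spleen 3.

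C1q-positive cells and monocytes were then compared gene by gene, as a description without a test because the rule chose both classes. Of 5303 genes with a mean of at least 20 CPM, 167 (3.15%) were higher in members in 4 of 4 libraries with a median of at least 2-fold, and 6.07% were lower. The median log2 ratio over all 5303 genes was -0.11. The 20 genes with the largest median ratio, among those outside the rule and at 100 CPM or more in the higher class, held Acp5, the lysosomal tartrate-resistant phosphatase, at 43.7, 113, 550 and 157 CPM in the 4 libraries (in the order above) against 7.34, 8.20, 13.5 and 8.33 CPM in monocytes. T cells of these libraries held it too, at 63.5 to 119 CPM. Pltp, the phospholipid transfer protein, stood at 140, 144, 677 and 33.0 CPM against 12.7, 7.11, 5.51 and 8.09 CPM. Nr1h3, the sterol-sensing nuclear receptor LXRα, stood at 75.5, 56.5, 163 and 115 CPM against 7.92, 4.56, 5.74 and 6.44 CPM. All 3 were higher in members in every one of the 4 libraries, at medians of 3.86, 3.76 and 3.67 on the log2 scale. A UMI of Acp5 was seen in 45 of 200, 8 of 18, 21 of 34 and 6 of 11 members. Pltp was seen in 88, 8, 20 and 2 of them, and Nr1h3 in 71, 8, 13 and 5. In Eµ-TCL1 spleen 3, 1 cell held 42 UMIs of Pltp. In Eµ-TCL1 spleen 1, Pltp stood at 680.5 CPM in the 6 members with fewer than 5 Lyz2 UMIs and 71.3 CPM in the other 12. In Eµ-TCL1 spleen 3, Nr1h3 was seen in 12 of 26 such members and 1 of the other 8.

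Others of the 20 with the same sign in 4 of 4 libraries were Basp1, Rgs1, Mmp14, Cd63, Cd300c2, Fcgr4, Ecm1, Apoe, Cxcl16 and Tgm2. Haemoglobin and neutrophil granule genes also entered this list (Hbb-bs, Hbb-bt, Hba-a1, Hba-a2, Ngp and Camp), with the opposite sign in Eµ-TCL1 spleen 1. They were carried by few cells: 853 of 902 Hbb-bs UMIs in Eµ-PRMT5 spleen 4 and 1692 of 2087 in Eµ-TCL1 spleen 3 came from 1 cell, and so did 1071 of 2229 and 1993 of 3005 Ngp UMIs. Rhoc completed the list and was at 0 in Eµ-PRMT5/TCL1 spleen 2. The 10 lowest genes were proliferation and metabolic genes (Mcm6, Ccnb2, Dut, Cdca3 and Phgdh) and genes of granulocyte-monocyte progenitors (Mpo, Elane, Ctsg, Ms4a3 and Prtn3). Prtn3, a granule protease, stood at 456, 126, 2038 and 49.5 CPM in members and 1993, 2363, 2320 and 2253 CPM in monocytes. Members of Eµ-TCL1 spleen 1 held no UMI of Mcm6, Ctsg, Ccnb2, Ms4a3 or Dut, and those of Eµ-PRMT5/TCL1 spleen 2 none of Mcm6, Mpo, Elane, Ccnb2, Ms4a3 or Cdca3. These ratios depend on the 1 CPM added and are no bound: with zeros set to the floor of 3 UMIs, the median of Mcm6 moved from -4.82 to -2.48 and that of Ms4a3 from -4.31 to -1.93. Mpo, Elane and Ctsg were not lower in Eµ-TCL1 spleen 3. There, 311 of the 337 Prtn3 UMIs of members came from 1 cell.

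**Figure D3:**
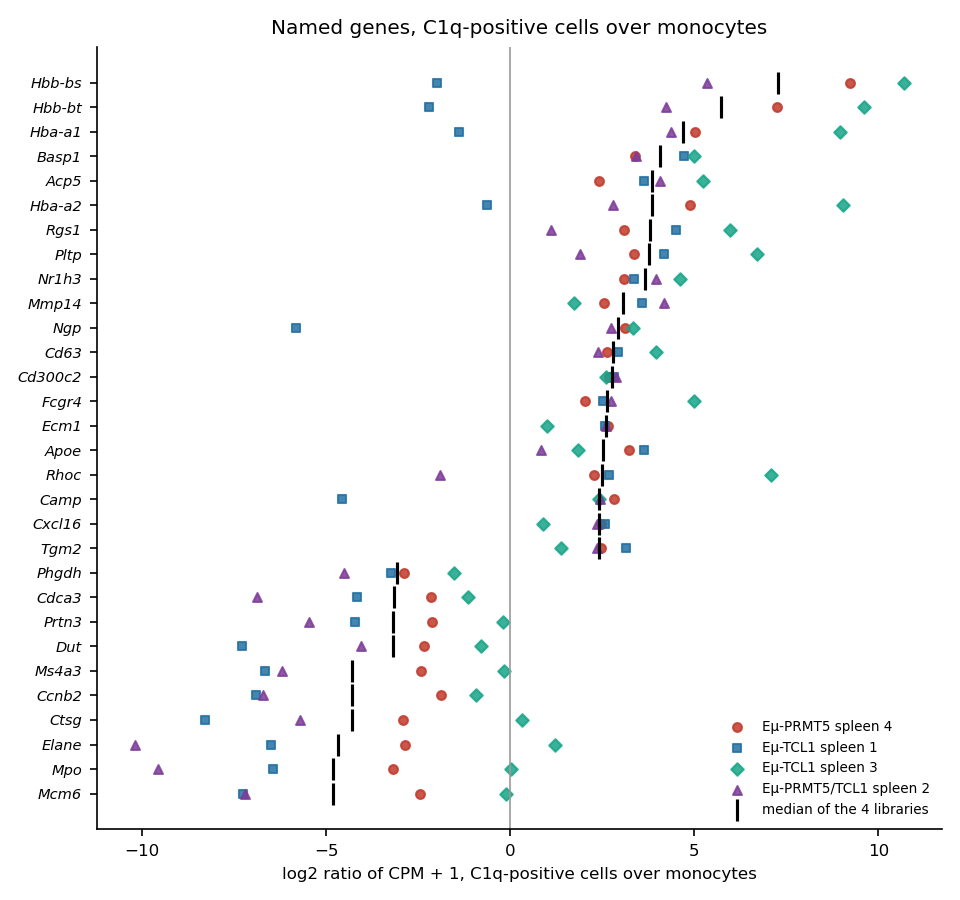
Log2 ratio of CPM + 1 in C1q-positive cells over monocytes of the same library for the 20 genes with the largest and the 10 with the smallest median. Symbols are the 4 spleens and black ticks their medians, which ran from 7.29 (Hbb-bs) to -4.82 (Mcm6, at 0 in members of 2 libraries, with a median of -2.48 at the floor of 3 UMIs). The haemoglobin genes, Ngp and Camp lie left of 0 in Eµ-TCL1 spleen 1, while Acp5, Pltp and Nr1h3 lie right of 0 in all 4.

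Of the list of MHC class II and costimulation genes, which serve the presentation of antigen to CD4 T cells, 5 of 9 compared genes passed upward and none downward, with a median log2 ratio of 1.52. They were H2-Aa, H2-Ab1, H2-Eb1, the class II chaperone gene Cd74 and the costimulatory receptor gene Cd40. H2-Aa stood at 3432, 4187, 556 and 6270 CPM in members against 1350, 1194, 125 and 1577 CPM in monocytes. Its chaperone Cd74 stood at 14379, 16617, 2739 and 19337 CPM against 6851, 5765, 648 and 6817 CPM. The level in Eµ-TCL1 spleen 3 was the lowest for both genes in both classes. There, H2-Aa was seen in 6 of 34 members, with 39 of 92 UMIs in 1 cell, and Cd74 in 14. Of the macrophage identity list 5 of 11 compared genes passed upward (median 1.07), among them Lgmn, the gene of a lysosomal protease, Aif1, Fcgr1 and Cd68.

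Of the red pulp and iron list, 7 of 14 compared genes passed upward (median 2.06): Spic, Nr1h3, Vcam1, Hmox1, the iron and manganese transporter gene Slc11a1, the biliverdin reductase gene Blvrb and the ferritin gene Fth1. The call of Vcam1 rests on 1 UMI in 1 of 11 members of Eµ-PRMT5/TCL1 spleen 2 (8.25 CPM against 2.48 CPM in monocytes) and, in both Eµ-TCL1 spleens, mostly on 1 cell each. Spic was low in members (11.9, 163, 60.5 and 57.7 CPM), with a UMI in 13 of 200 cells of Eµ-PRMT5 spleen 4 and with 25 of 26 UMIs of Eµ-TCL1 spleen 1 in 1 cell, against 1.16, 0, 0.459 and 1.65 CPM in monocytes. Of 26 lysosome genes 8 passed upward (median 0.65), led by Acp5, Cd63, Lgmn and Acp2. Fc receptors had 3 of 6 upward (median 1.06), with Fcgr4, an activating receptor for IgG, at 390, 264, 568 and 198 CPM against 94.8, 44.8, 16.8 and 28.7 CPM. Complement genes outside C1q had 2 of 6 upward, C3ar1 and Cfb (the receptor of the C3a fragment and factor B).

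Counts in the short lists that follow rest on few genes, beside 3.15% upward among all genes. Among the other lists were lipid handling with 3 of 16 upward (Pltp, Apoe and Mylip), the interferon response with 3 of 13 (Cxcl9, Isg15 and Irf7) and a list of checkpoint ligands and inhibitory receptors with 4 of 9 (the ligand gene Cd274 and the receptor genes Siglece, Havcr2 and Pilra). Cd274, the ligand PD-L1, stood at 177, 81.6, 12.1 and 107 CPM against 58.3, 21.7, 11.0 and 20.9 CPM. Inflammatory cytokines and chemokines had 2 of 9 upward (Cxcl16 and Tnf), B cell support 2 of 7 (Cd38 and again Vcam1), immediate early and heat shock genes 3 of 13 (Dusp1, Egr1 and Jun), apoptotic cell clearance 1 of 5 (Cd300lf) and alternative activation 1 of 6 (Tgm2). Of macrophage transcription factors 4 of 15 passed upward (Spic, Nr1h3 and Id3 among them) and 1 downward (Mef2c). No gene of the marginal zone and sinus list reached the minimum level. Several counts changed with the setting. With cells weighted equally, the checkpoint list had 1 of 9 upward, and with a C1q limit of 10 the interferon response had 1 of 13. Without Eµ-TCL1 spleen 1 the interferon response had 5 of 14, without Eµ-TCL1 spleen 3 complement had 4 of 7, without Eµ-PRMT5 spleen 4 the red pulp list had 11 of 16 and without Eµ-PRMT5/TCL1 spleen 2 macrophage identity had 3 of 11.

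Cell cycle genes were lower in members for 15 of 15 genes compared (median -2.43), against 6.07% of all genes. In members, 10 of the 15 were at 0 in Eµ-PRMT5/TCL1 spleen 2 and 3 in Eµ-TCL1 spleen 1, and with such values set to the floor of 3 UMIs the median was -2.12 with 15 of 15 lower. The count was 15 of 15 without any 1 of the 4 libraries and 13 of 15 when each cell was weighted equally. Progenitor markers stood at summed levels of 726, 144, 5823 and 57.7 CPM in members against 3935, 4637, 4492 and 4737 CPM in monocytes, lower in 3 libraries but higher in Eµ-TCL1 spleen 3. Of the 5 markers 2 passed downward, 0 with a C1q limit of 10 and 5 without Eµ-TCL1 spleen 3, and their part in the cell cycle ratios was not tested. Monocyte markers had 4 of 13 downward (F13a1, Spn and Ly6c2 among them) and none upward, with a median of -0.08, and 7 of 14 downward with cells weighted equally. With Eµ-TCL1 spleen 1, Eµ-TCL1 spleen 3 and Eµ-PRMT5/TCL1 spleen 2 left out in turn, 2 passed downward each time, with 1, 2 and 0 upward. Ly6c2, which marks inflammatory monocytes, stood at 1458, 2304, 526 and 1097 CPM in members against 3093, 2877, 1712 and 3273 CPM in monocytes. Members were shallower than monocytes, with median UMIs of 7150.5, 10049, 2946 and 11493 against 10343.5, 16043, 16508 and 18527, and the part of depth in these ratios was not tested.

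In Eµ-PRMT5 spleen 4, members with more Ly6c2 held less H2-Aa and Hmox1 and more Lyz2 in their summed UMIs. Ly6c2 ran from 0 to 101 UMIs per cell with a median of 4, C1qb from 1 to 94 with a median of 17 and H2-Aa from 0 to 90 with a median of 23. Of the 200 members, 51 held no Ly6c2 UMI, 82 held 1 to 9 and 67 held 10 or more, bands drawn after the values had been seen. From the first band to the last, H2-Aa stood at 5755, 4050 and 1903 CPM. C1qb, which the rule used, stood at 4728, 3860 and 1289 CPM. Hmox1 stood at 797, 425 and 234 CPM over the same bands. Lyz2, lysozyme, ran the other way at 2002, 4167 and 8363 CPM, as did Chil3 at 1456, 3713 and 5711 CPM and Ccr2, the monocyte chemokine receptor, at 98.3, 186 and 240 CPM. The neutrophil gene S100a8 climbed as well, at 749.8, 6270 and 12700 CPM. The proliferation gene Mki67 stood at 14.6, 10.3 and 84.2 CPM, and Apoe at 1023, 1179 and 407 CPM. Vcam1 stood at 18.2, 20.6 and 12.3 CPM, so that even cells without Ly6c2 held little of it. Median depth rose with the band, at 5274, 6999 and 8397 UMIs, and its part in the order was not tested.

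**Figure D4:**
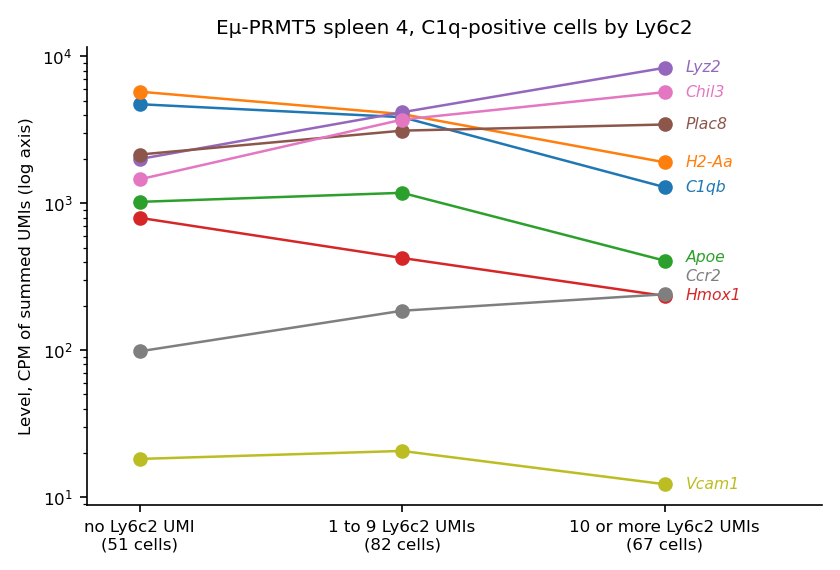
Level of 9 genes (CPM of summed UMIs, log axis) in the 200 C1q-positive cells of Eµ-PRMT5 spleen 4, split by their Ly6c2 UMIs into bands of 51, 82 and 67 cells. C1qb, H2-Aa and Hmox1 fall from left to right, Lyz2, Chil3, Plac8 and Ccr2 climb, Apoe is highest in the middle band (1179 CPM), and Vcam1 stays between 12.3 and 20.6 CPM.

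Genes that set members of this library apart from those of each of the other 3 were also counted. No such count was made for the other 3, so whether this library differed more than they did was not tested. Of 1418 genes with a mean of at least 100 CPM, 18 (1.27%) were at least 2-fold higher than in each of the other 3 libraries and 9 (0.635%) at least 2-fold lower, a description of 1 library against 3. Saa3, an acute phase protein induced by inflammation, stood at 6073 CPM with a UMI in 184 of 200 members, against 81.6, 218 and 1963 CPM in the other libraries. Cxcl10, a chemokine induced by interferon, stood at 776 CPM in 119 of 200 members, against 12.6, 30.2 and 140 CPM. Cxcl9, from the same family, stood at 510 CPM against 113, 30.2 and 181 CPM. Ifitm1 stood at 3677 CPM against 477, 484 and 676 CPM, and Il1r2, the decoy receptor of interleukin-1, at 453 CPM against 43.9, 72.6 and 49.5 CPM. The part of free RNA in these levels was not tested.

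The remaining genes higher in Eµ-PRMT5 spleen 4 were Fcgr2b, the inhibitory receptor for IgG, Ier3, Atf3, Naaa, Irf8, Icam1, AW112010, Irf1, Ecm1, Rhob, Nfkbia, Lrg1 and Emb. The monocytes of the same library were at least 2-fold above those of each other library for 8 of the 18 genes, Saa3, Cxcl9, Cxcl10, Ifitm1 and Il1r2 among them (Saa3 1296 CPM against 49.8, 201 and 111 CPM), so that for these the difference was not limited to the C1q-positive cells. Fcgr2b was not among the 8, at 549 CPM in members and 172 CPM in monocytes. The 9 lower genes were Pid1, Cebpd, Mthfd2, Cyb5a, Lipa, Cd63, Thbs1, Acp5 and Bcl2a1d, and the monocytes were lower for 4 of them. Acp5 and Cd63 were thus higher than in monocytes of the same spleen and lower than in members of the other spleens.

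Members with little Lyz2 made up most of Eµ-TCL1 spleen 3, and members with little Lyz2 but other levels of class II genes were found in other libraries. Of its 34 members, 26 (76.5%) held fewer than 5 UMIs of Lyz2, against 28 of 200 in Eµ-PRMT5 spleen 4, 6 of 18 in Eµ-TCL1 spleen 1 and 2 of 11 in Eµ-PRMT5/TCL1 spleen 2. Among libraries with fewer members, 5 of 6 in Eµ-PRMT5/TCL1 lymph node 1 and 2 of 2 in Eµ-TCL1 spleen 2 held fewer than 5. The 26 cells were shallow, at a median of 2670 UMIs against 9193.5 in the other 8 and 16508 in the monocytes. They held C1qb at 5296 CPM and Fcer1g at 8198 CPM, both in 26 of 26 cells, and Fcgr4 at 1057 CPM in 22. Cd74 stood at 1215 CPM in 8 of 26 cells and H2-Aa was seen in 3. In the 28 members of Eµ-PRMT5 spleen 4 with fewer than 5 Lyz2 UMIs, Cd74 stood at 20290 CPM and H2-Aa was seen in all 28. Cd74 stood at 39970 CPM in the 5 of Eµ-PRMT5/TCL1 lymph node 1 and 4659 CPM in the 6 of Eµ-TCL1 spleen 1. The 1 such cell of Eµ-PRMT5/TCL1 spleen 3 held no UMI of either gene.

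Fabp4, a fatty acid binding protein, was seen in 20 of the 34 members at 351 CPM (exact Poisson interval 266 to 453), with at most 8 UMIs in a cell. It was seen in 0.252% of T cells and 0.833% of monocytes of the same library, at median depths of 4974 and 16508 UMIs against 2946 in members. T cells with C1q RNA, 38 of 1625 in this library, were left out of these and the following T cell shares. The shares thus do not cover T cell droplets that held C1q RNA. Itgad, the integrin chain CD11d, was seen in 15 members, all of them among the 26, at 187 CPM (127 to 266), in 0.189% of T cells and in none of 240 monocytes. In Eµ-PRMT5 spleen 4, by contrast, 2 of 200 members held Fabp4 and none held Itgad, an upper limit of 2.44 CPM by the Poisson interval. Members with fewer than 5 Lyz2 UMIs also held Itgad in 3 of 6 cells of Eµ-TCL1 spleen 1, 1 of 2 of Eµ-PRMT5/TCL1 spleen 2 and the 1 such cell of Eµ-PRMT5/TCL1 spleen 4. Thinned to 1500 UMIs per cell, 44.1% of the members of Eµ-TCL1 spleen 3 held Fabp4 and 29.4% Itgad. Of the other genes of the red pulp and iron list, which also holds Itgad, Hmox1 was seen in 18 of the 34 members and 13 of the 26 cells, and Nr1h3 in 13 and 12, whereas Spic was seen in 3, Slc40a1 in 3 and Vcam1 in 2 of the 34. Monocytes of that library held Hmox1 in 66.7% and Nr1h3 in 8.75% of cells, and T cells in 2.21% and 0.441%. Csf1r was seen in 5 of the 26 cells. Axl, a receptor for dying cells, was seen in 11 of the 26 cells at 279 CPM, against 2.92% of monocytes and 0.378% of T cells. Ccl4, a chemokine, was seen in 15 at 838 CPM, against 5.42% and 1.39%. Neither was limited to this library: among members with fewer than 5 Lyz2 UMIs, Ccl4 stood at 826 CPM in Eµ-PRMT5 spleen 4 (8 of 28 cells), and Axl at 209 CPM in Eµ-TCL1 spleen 1 (2 of 6) and 380 CPM in Eµ-PRMT5/TCL1 lymph node 1 (3 of 5).

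Trac, a T cell receptor constant gene, was seen in 12 of the 26 cells although cells with Cd3 had been left out, against 41.3% of the T cells of that library at a median of 4974 UMIs. It was seen in 5.83% of the monocytes there, at a median of 16508 UMIs. In the same library 26 barcodes with at least 5 C1q UMIs held Cd3 RNA and 29 held Cd79 RNA, so that C1q RNA and lymphocyte RNA often shared a droplet there. This was not limited to Eµ-TCL1 spleen 3: 18 of 36 such barcodes in Eµ-TCL1 spleen 1 and 12 of 15 in Eµ-PRMT5/TCL1 spleen 3 were left out for Cd3 or Cd79 RNA. Of the barcodes of Eµ-TCL1 spleen 3 that met the other limits of the rule, 4 held 3 or 4 C1q UMIs and 30 held 10 or more.

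**Figure D5:**
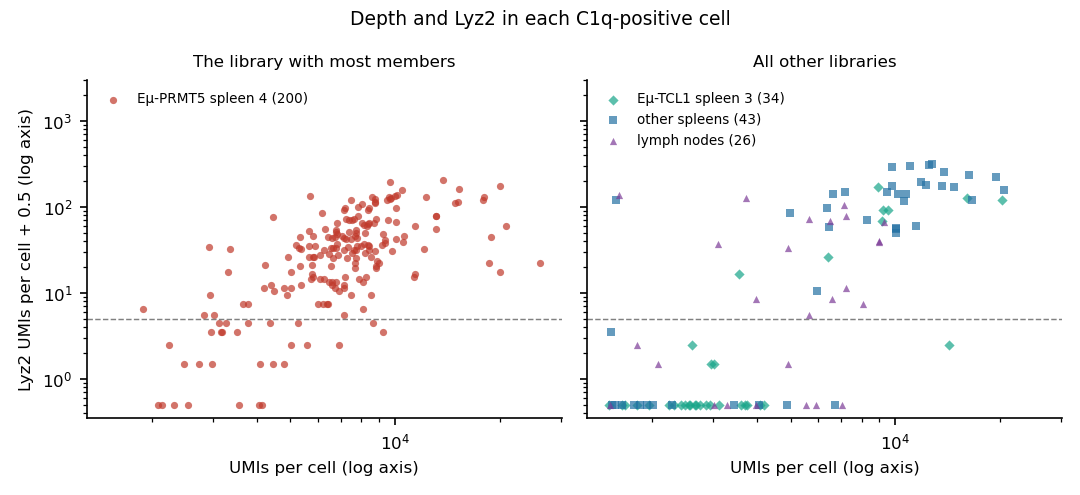
Lyz2 UMIs (plus 0.5) against total UMIs of each C1q-positive cell, both on log axes, in Eµ-PRMT5 spleen 4 (left, 200 cells) and in Eµ-TCL1 spleen 3 (34), other spleens (43) and lymph nodes (26) on the right. The dashed line parts cells with fewer than 5 UMIs from the rest, and 26 of the 34 cells of Eµ-TCL1 spleen 3 lie below it.

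Red pulp genes were also found in some cells of other spleens, and those of the nodes are given below. In Eµ-TCL1 spleen 1, the 6 members with fewer than 5 Lyz2 UMIs held Hmox1 at 4031 CPM in 6 of 6 cells and Itgad in 3, while the 12 with more held Hmox1 at 28.5 CPM in 2 of 12. Cd5l, a secreted macrophage protein, was seen in 4 of 18 members there, in 5 of 34 in Eµ-TCL1 spleen 3, and in none of 200 in Eµ-PRMT5 spleen 4. Over all libraries Cd5l was seen in 14 members, none of them in Eµ-PRMT5 spleen 4. In Eµ-TCL1 spleen 2, which had 2 members, Vcam1, Cd5l, Slc40a1, Marco and Cd163 were each seen in 1 cell. Such cells were too few to compare between genotypes.

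The 24 members of the Eµ-PRMT5/TCL1 lymph nodes held much MHC class II RNA, with H2-Aa at 8178 CPM in 21 of 24 cells and Cd74 at 27325 CPM in 21. Across nodes 1 to 4, H2-Aa stood at 9372, 6329, 12317 and 7422 CPM, and Ly6c2 at 0, 352, 58.1 and 210 CPM. Spleens with few members overlapped with these levels: H2-Aa stood at 7079 CPM in the 2 members of Eµ-PRMT5/TCL1 spleen 1, and Ly6c2 at 0, 71.0 and 101 CPM in Eµ-TCL1 spleens 2 and 4 and Eµ-PRMT5/TCL1 spleen 4. Hmox1 stood at 3742, 226, 2382 and 303 CPM in nodes 1 to 4, with 35 of 41 UMIs of node 3 in 1 cell. It was seen in 5 of 6, 3 of 6, 3 of 4 and 5 of 8 members. Slc40a1 was seen in 3 of 6 members of node 1 and in none of nodes 2, 3 and 4. Rgs1, a regulator of G protein signalling, stood at 1442 CPM in 13 cells and Cxcl16, a chemokine, at 829 CPM in 18. Cxcl9 stood at 0, 1005, 1859 and 2241 CPM in nodes 1 to 4, with 39 of 40, 28 of 32 and 49 of 96 UMIs of the last 3 in 1 cell each. Ms4a7, a membrane protein of tissue macrophages, was seen in 8 cells (411 CPM, with 36 of 53 UMIs in 1 cell) and Vcam1 in 5 (77.5 CPM, interval 37.2 to 143). Ccl8 at 1031 CPM rested on 2 cells, and S100a9 at 10349 CPM on 1 cell that gave 1334 of 1335 UMIs. With 4 to 8 cells per node these levels describe cells, not nodes, and the 2 Eµ-TCL1 node members do not allow a comparison.

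Genes of other cell types were checked as whole lists in the 4 spleens and the summed nodes. The T and B cell lists hold the Cd3 and Cd79 genes, which the rule limited in members and not in monocytes. Lower sums of these lists in members were therefore partly fixed by the rule. The 10 T cell markers summed to 0 to 151 CPM in members and 37.7 to 264 CPM in monocytes, the 10 B cell markers to 74.2 to 278 CPM against 215 to 812 CPM, and the 6 plasma cell markers to 148 to 307.6 CPM against 301 to 899 CPM. The 6 NK markers summed to 0 to 90.7 CPM and the 5 platelet markers to 0 to 1.32 CPM. The 10 dendritic cell markers summed to 7.95 CPM in members of Eµ-PRMT5 spleen 4 against 19.1 CPM in its monocytes. They were higher in members elsewhere. In Eµ-TCL1 spleens 1 and 3, Eµ-PRMT5/TCL1 spleen 2 and the nodes they summed to 25.1, 96.8, 41.2 and 186 CPM against 11.7, 20.9, 19.4 and 89.0 CPM. The 5 mast and basophil markers reached 0.662 CPM and the 9 stromal and endothelial markers 9.94 CPM. The 9 neutrophil markers ranged from 314 to 59182 CPM and the 9 erythroid markers from 0 to 16091 CPM. Both highest sums were in Eµ-TCL1 spleen 3, where 1 cell each gave 58.2% and 79.0% of them. The highest such shares were 99.9% of the neutrophil sum in the nodes and 92.3% of the erythroid sum in Eµ-PRMT5/TCL1 spleen 2. The 5 progenitor markers summed to 0 to 5823 CPM in members and 940 to 4737 CPM in monocytes, with 1 cell giving 96.2% of the highest sum, in Eµ-TCL1 spleen 3. Their part in the other results was not tested.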

How the data were processed

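For each of 20 libraries the authors deposited a matrix of raw UMI counts over all barcodes, neither filtered nor normalized, made with 10x Genomics 3′ v2 chemistry. The submitters' processing notes name Cell Ranger 2.0.1, Seurat 2.2.1 and GRCm38, whereas the deposited file headers name Cell Ranger 3.1.0. The annotation is not given in the sources used here. Each matrix holds 31053 genes.

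Groups and mouse numbers were read from the labels. Barcodes with at least 1500 UMIs were kept, and members and monocytes were chosen by the limits given above. The members, gene lists and alternatives were chosen with earlier results of these data known. Doublets were scored with Scrublet through scanpy 1.11.5, which called under 0.5% of cells in 16 of 20 libraries and so had not worked there, and which called 1 member. Its calls were used only as an alternative.

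Shares of cells were compared over libraries with exact two-sided permutation tests (scipy 1.17.1) and, between tissues of 1 mouse, with sign flips over mice. Benjamini-Hochberg adjustment covered the 9 tests that gave a p. Libraries of separate mice are the replicates. The planned count model across genes needed 2 libraries with at least 10 members on each side, and no comparison had them. Members and monocytes were compared as log2(CPM + 1) of summed UMIs without a test, in genes with a mean of at least 20 CPM. The ratio rule was tried on simulated data, with the outcome not reported here. Named genes were the 4 markers, the other genes of the rule, the 20 largest and 10 smallest median ratios among genes with at least 100 CPM in the higher class, and up to 4 genes per list. Further genes were named after their values had been seen: those apart in Eµ-PRMT5 spleen 4, Fabp4, Itgad, Trac, Axl, Ccl4, Cd5l and the lymph node genes. Thinning drew 1500 UMIs per cell, which left out no cell. The mouse numbers pair tissues, and replicate numbers do not pair mice of different genotypes. Some members of the gene lists are not reported here.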

Additional observations from a re-analysis of the deposited data

Results flagged for a closer look

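The 5 values below stood far from the others of their group by Dixon's test at the 95% level, and 7 groups of values were checked. The test marks about 1 group in 20 by chance where values are normal, which shares built on few cells or with ties need not be. With 4 Eµ-PRMT5 spleens at 0, any member in the remaining spleen would have been marked. Both marks of Eµ-PRMT5 spleen 4 rest on the same 200 cells. Eµ-PRMT5 spleen 4 held 4.34% C1q-positive cells with the other 4 Eµ-PRMT5 spleens at 0, and 31.9% of its C1q-positive cells and monocytes together were C1q-positive. Eµ-PRMT5/TCL1 spleen 2 held 0.296%, above 0.0335 to 0.0640% in the other 3. Eµ-PRMT5/TCL1 lymph node 1 held 0.765%, above 0.0707 to 0.128% in the other 3, from 6 members among 784 cells. In Eµ-PRMT5/TCL1 spleen 1, C1q-positive cells made up 6.45% of both classes, from 2 members and 29 monocytes, above 1.15 to 1.80% in the other 3.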

How the results depend on the processing

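Of 176 recomputed values, 163 were labelled unchanged, 11 turned sign and 2 moved. The 163 include those with the replicate block or without the pairing of tissues, whose differences could not change. For shares with a test, unchanged meant the same sign and the same side of an adjusted p of 0.05. For the node share of both classes, which had no test, it meant a change smaller than the larger group SD. Counts of genes against monocytes were also among the 176 and have neither a sign nor a p. No difference in shares passed an adjusted p of 0.05 in any setting, so none of the 11 was a call. With so few libraries, 1 test alone could not reach that level. For the share of cells, differences with 1 library left out ran from -0.270 (without Eµ-PRMT5 spleen 4, against 0.599) to 0.816 points for Eµ-PRMT5 minus Eµ-TCL1 spleens, from -0.979 to 0.108 (without the same library, against -0.761) for Eµ-PRMT5/TCL1 minus Eµ-PRMT5 spleens, from -0.243 to -0.0256 for Eµ-PRMT5/TCL1 minus Eµ-TCL1 spleens, from 0.0791 to 0.311 for nodes, and from -0.0747 (without the mouse of Eµ-PRMT5/TCL1 spleen 4) to 0.0899 for node minus spleen, which was -0.0298 with a C1q limit of 3. For the share of C1q-positive cells and monocytes together they ran from -6.19 (without Eµ-PRMT5 spleen 4) to 2.28 for Eµ-PRMT5 minus Eµ-TCL1 spleens, which was -0.0943, -0.309 and -1.06 without Eµ-TCL1 spleens 1, 2 and 4, -0.610 with a C1q limit of 3 and -1.07 with Cd3 and Cd79 limits on monocytes. They ran from -5.25 to 2.73 (without Eµ-PRMT5 spleen 4), from -4.72 to -1.38, from 18.3 to 28.6 and from 8.73 to 18.5 for the other 4 in the same order. Against monocytes, 188 to 213 genes were higher and 281 to 420 lower with 1 library left out, and 258 and 1318 with no minimum CPM, where more genes were compared.

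The replicate block, chosen after seeing the data, and the test without pairing change only the p, so that the differences are the same by construction. With the block, the differences in share of cells were 0.599, -0.162, -0.761 and 0.246 points (exact permutation p = 1.0, 0.5, 1.0 and 0.25). In share of both classes they were 0.203, -3.45, -3.66 and 21.7 points. The block swapped libraries by replicate number, which does not pair mice of different genotypes. Without the pairing of tissues by mouse, node minus spleen was 0.0400 (exact permutation p = 0.833) and 13.2 points (exact permutation p = 0.2). No paired analysis was possible for single genes between genotypes or tissues because no such comparison had 2 libraries with 10 members on each side, and the planned count models and their alternatives were not run. Few members limit every library but Eµ-PRMT5 spleen 4.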
